A study of Mus musculus with 10 samples.

Results

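*Rps7*, *Rnaseh1*, *Adi1*, *Trappc12*, *Eipr1*, *Acp1* and *Sh3yl1* lie between 28 and 31 Mb of mouse chromosome 12 (GRCm38), and *Rps7-ps3* is a near-identical copy of *Rps7* on chromosome X. These 8 genes, of 51717 genes quantified, were chosen by their position together with measured differences between recent *Mpc2* KO and WT granulocyte-macrophage progenitors (GMPs). Their values in that comparison are therefore given as a description with no test. All 8 passed the filter on low counts that left 12381 genes.

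RNA-seq was available for 5 WT and 5 recent KO samples of male mice whose strain label was C57Bl6/N. The WT genotype label was ROSA26 CreER+/- and the recent KO label was Mpc2fl/fl; ROSA26 CreER+/-, so both groups carried the tamoxifen-inducible Cre, which is expressed from a ubiquitous locus. Both received tamoxifen chow for 2 wk immediately before collection, and CD45.2+ donor GMPs were sorted from the bone marrow of irradiated chimeras. The WT genotype named no floxed allele, so the deletion of *Mpc2* and any other difference between the mouse lines cannot be told apart. Each of the 5 WT samples was 1 mouse, whereas cells of 2 mice were combined for each KO sample, so the spread is over single mice in WT and over pools in the KO.

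The 8 genes have unrelated textbook roles. *Rps7* encodes a protein of the small (40S) ribosomal subunit, and like other ribosomal protein genes it has many processed pseudogenes, which arise when an mRNA is copied back into the genome without its introns. *Adi1* encodes acireductone dioxygenase, an enzyme of the methionine salvage pathway, which returns the methylthio group left by polyamine synthesis to methionine. *Trappc12* encodes a subunit of a TRAPP complex, which acts in vesicle transport, and *Eipr1* encodes a partner of the EARP and GARP tethering complexes of endosomes. *Acp1* encodes a low molecular weight tyrosine phosphatase, *Rnaseh1* an enzyme that cuts the RNA strand of RNA-DNA hybrids, and *Sh3yl1* a lipid-binding protein with an SH3 domain.

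Samples totaled 14133706 to 19745405 estimated reads in WT and 14033776 to 19658346 in the recent KO. *Mpc2*, the targeted gene, on chromosome 1, was at 61.0, 111.5, 95.2, 116.7 and 61.0 normalized CPM (reads scaled to library size with TMM factors) in WT replicates 1 to 5 and at 27.7, 17.1, 43.9, 37.0 and 35.0 in recent KO replicates 1 to 5. The groups did not overlap for *Mpc2*. All 12 GMP markers were found, and their summed level was 87950 to 123800 CPM in WT and 51930 to 89980 in the recent KO. Most of that sum was *Mpo* (means 61000 and 42410 CPM) and *Elane* (24650 and 15880). The means of *Kit* (38.3 and 40.4 CPM) and *Cd34* (231.0 and 275.3) were instead higher in the recent KO, and those of the other GMP markers were lower. None of the 12 was called. Summed macrophage markers (4 of 4 found) were at 12.8 to 22.8 CPM in WT and 23.5 to 37.4 in the recent KO, with *C1qa* and *C1qb* called higher and *Adgre1* lower in its means (3.02 and 2.29 CPM) but not called. Summed megakaryocyte markers (3 of 3) were at 8.47 to 17.1 CPM in WT and 20.98 to 29.2 in the recent KO, and none was called. Summed B cell markers (4 of 4) stayed between 0.119 and 0.928 CPM. Summed T cell markers (4 of 4) were at 2.18 to 5.57 CPM in WT and 4.81 to 7.18 in the recent KO. Most of that sum was *Lck* (means 2.99 and 4.60 CPM), which was not called. Erythroid markers (5 of 5) were at 10.2 to 30.3 CPM in WT and 15.9 to 127.8 in the recent KO, and none was called. Those of mature neutrophils (6 of 6) were at 111.7 to 421 and 104.1 to 740.4. *S100a8*, the largest part of the neutrophil sum, was lower in its mean in the recent KO (200.8 and 190.1 CPM). The means of the other neutrophil markers were higher there, and none of the list was called. No marker was at 0 in every sample. The part of these other cell types in the values below was not tested, and in bulk samples fewer cells of a type and less RNA per cell cannot be told apart.

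Because reads of *Rps7* and *Rps7-ps3* can be exchanged in quantification, the sequences were compared first. *Rps7* (ENSMUSG00000061477, minus strand, chr12:28630854-28635953) has the main protein-coding transcript Rps7-201 of 954 bases. *Rps7-ps3* (ENSMUSG00000095597, minus strand, chrX:152909505-152910155) is annotated as a transcribed processed pseudogene, and its longer transcript, Rps7-ps3-201, has 651 bases with no intron. All 651 bases aligned to positions 73 to 723 of Rps7-201 with 4 mismatches, an identity of 99.4%. Counted from the first base of Rps7-201, with the base of Rps7-201 first, the differences were G86A in the 5′ UTR and T133G, G155A and G230T in the coding sequence. T133G changed the encoded residue and the other coding differences did not. The 3 coding differences are shown in capitals in the first 138 coding bases of Rps7-201 (exons at chr12:28635425-28635654) and in the matching stretch of Rps7-ps3-201 (chrX:152909983-152910120), both on the minus strand, from GENCODE M21 on GRCm38:
Rps7-201: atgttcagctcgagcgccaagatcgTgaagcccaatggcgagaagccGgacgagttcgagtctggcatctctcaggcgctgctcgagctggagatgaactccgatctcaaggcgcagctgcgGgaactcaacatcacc
Rps7-ps3-201: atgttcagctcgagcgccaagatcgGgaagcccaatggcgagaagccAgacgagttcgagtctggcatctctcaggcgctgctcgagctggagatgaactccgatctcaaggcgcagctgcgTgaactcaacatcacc

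The 5′ UTR difference is shown in capitals within 21 bases of Rps7-201 (chr12:28635858-28635878) and of Rps7-ps3-201 (chrX:152910132-152910152), both on the minus strand:
Rps7-201, 5′ UTR: tttctaagccGgcgatccgtc
Rps7-ps3-201, 5′ UTR: tttctaagccAgcgatccgtc

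All 4 mismatches fell within the first 158 bases of Rps7-ps3-201, and the bases after them were identical. A read that came wholly from that identical stretch cannot be told apart by its own sequence. Rps7-201 had 72 bases before the aligned stretch and 231 after it that Rps7-ps3-201 lacked. Of 502 windows of 150 bases in Rps7-ps3-201, 344 (68.5%) occurred unchanged in Rps7-201, and the same 344 made up 42.7% of the 805 windows of Rps7-201. These windows stand for single reads and compare Rps7-ps3-201 with Rps7-201 only. The libraries were sequenced as paired ends, and a mate outside the identical stretch can tell a pair apart.

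A second protein-coding transcript of the gene, Rps7-203 (820 bases), differs from Rps7-201 at both ends. Its first exon (chr12:28635580-28635857) runs through intron 1 of Rps7-201 (chr12:28635664-28635855, 192 bases), so its first 190 bases did not align to Rps7-201, and it ends 1 base beyond the stretch shared with Rps7-ps3. It therefore holds sequence that neither of the others has at the 5′ end and almost none of its own at the 3′ end. The 30 bases around the start of exon 2 show this, with exon 2 in capitals. In Rps7-201 they span the splice junction between exons 1 and 2 (chr12:28635649-28635870 with the intron), and in Rps7-203 they are continuous in the genome (chr12:28635649-28635678), both on the minus strand:
Rps7-201, exon 2 start: ccggcgatccgtcagGGTGAAGCCATGTTC
Rps7-203, exon 2 start: ccttcctcccctcagGGTGAAGCCATGTTC

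**Figure D1:**
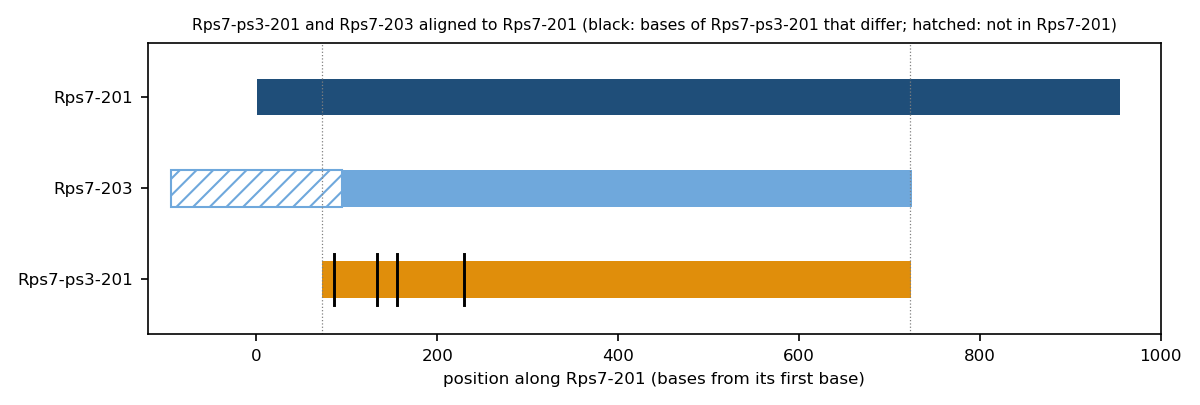
Rps7-203 and the 651-base transcript of Rps7-ps3 drawn along Rps7-201 (x axis: bases from the first base of Rps7-201), with the hatched part not in Rps7-201, dotted lines at positions 73 and 723, and black bars at the 4 bases that differ in Rps7-ps3. All 4 lie toward the 5′ end of the copy, and Rps7-201 extends beyond it on both sides.

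*Rps7* was lower in the recent KO. Its level was 852.5, 762.6, 960.9, 932.2 and 829 normalized CPM in WT replicates 1 to 5 and 397.9, 275.9, 441.3, 372.7 and 385.5 in recent KO replicates 1 to 5. Every recent KO sample lay below every WT sample, and recent KO replicate 2 was the lowest. The means were 867 ± 80.02 CPM in WT and 375 ± 60.95 in the recent KO (SD, n = 5 each), a log2 fold change of -1.21 (SE 0.11).

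*Rps7-ps3* was assigned almost no reads in WT and many in the recent KO. Its level was 0, 6.10, 0, 1.79 and 5.21 CPM in WT and 576.5, 330.6, 394.2, 422.4 and 437.3 CPM in the recent KO. WT replicates 1 and 3 had no read assigned to it, and the lowest recent KO sample stood far above all WT samples. The means were 2.62 ± 2.88 and 432.2 ± 90.4 CPM (SD, n = 5 each), and the fitted log2 fold change of 7.37 (SE 0.58) depends on how zero counts are treated. With near-zero values in WT, that difference is better read from the estimated reads, which were 0 to 110 per WT sample and 4728 to 8484 per recent KO sample. These are assignments by the quantification, not counts of reads that only *Rps7-ps3* could give.

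The sum of both genes differed little. Added together they were at 852.5, 768.7, 960.9, 934.0 and 834.2 CPM in WT and at 974.4, 606.5, 835.5, 795.1 and 822.8 CPM in the recent KO. The groups overlapped, and recent KO replicates 1 and 2 were the highest and the lowest of all 10 samples. The mean sum was 870 ± 77.8 CPM in WT and 807 ± 132 in the recent KO, 92.7% of WT (log2 ratio -0.11). *Rps7-ps3* held at most 0.796% of the summed reads in WT, and 47.2% to 59.2% of them after recent deletion. In TPM, a level per transcript length, the sum was instead higher in the recent KO, with 990.0 to 1171 in WT and 1190 to 1609 in the recent KO (log2 ratio 0.37), and the groups did not overlap. A read assigned to the 651-base copy counts for more TPM than a read assigned to the 954-base transcript.

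The transcripts of *Rps7* did not shift in proportion. Rps7-201 had 14354, 10535, 12862, 9390 and 10868 estimated reads in WT and 5407, 3815, 8394, 5873 and 7052 in the recent KO. Rps7-203 had 3048, 3056, 3228, 2525 and 2898 reads in WT and 217, 126, 565, 205 and 327 in the recent KO. Both were lower in every recent KO sample, Rps7-201 by a log2 fold change of -0.94 (SE 0.11) and Rps7-203 of -3.42 (SE 0.26). Rps7-203 made up 17.5% to 22.2% of the reads of *Rps7* in WT and 3.18% to 6.26% in the recent KO. As a share of the reads of both genes, Rps7-203 went from 20.3% ± 1.71 to 1.99% ± 0.772 and Rps7-201 from 78.8% ± 2.37 to 44.3% ± 3.59 (mean ± SD, n = 5 each). Rps7-ps3-201 aligned to 629 of the 820 bases of Rps7-203 and to 651 of the 954 bases of Rps7-201. Whether reads of either transcript were assigned to the copy was not tested. Of the *Rps7-ps3* reads in the recent KO, the 651-base transcript took 89.0% to 100% and the 582-base transcript the rest.

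**Figure D2:**
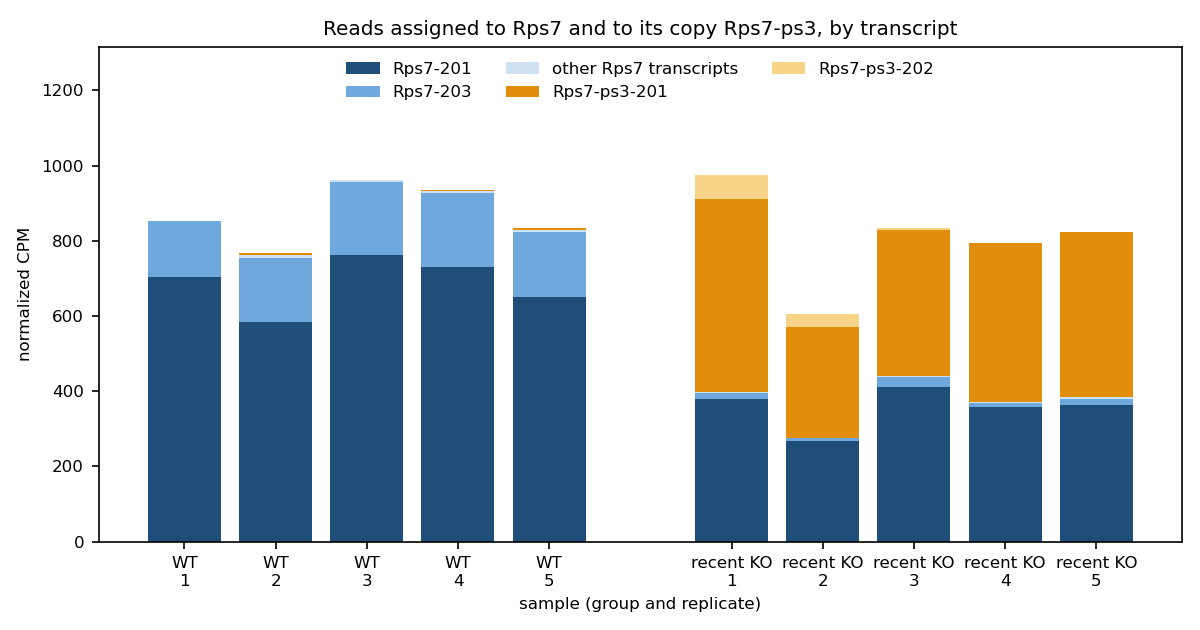
Normalized CPM (y axis) assigned to the transcripts of Rps7 (blue) and of Rps7-ps3 (orange) in each of the 10 samples, stacked to the sum of both genes. Orange is close to 0 in the 5 WT samples and makes up 47.2% to 59.2% of the bar in the 5 recent KO samples, where the Rps7-203 layer is thin.

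Other copies of *Rps7* took almost no reads. BLAST found 7 further genes with a transcript at least 95% identical to one of *Rps7* over at least 80% of its length, AC121967.1, *Gm28530*, *Gm42845*, *Gm5055*, *Gm7285*, *Gm8019* and *Gm9493*. *Gm9493*, on chromosome 19, had 3 mismatches to Rps7-201 over 570 bases, and a mean of 2.94 estimated reads in WT and 1.16 in the recent KO. The highest count of any of the 7 was 36 reads in a sample, for *Gm7285*. Their sum was 44.8 ± 8.69 reads in WT and 31.04 ± 6.31 in the recent KO (SD, n = 5 each). *Gm42845* covered none of the 4 positions at which *Rps7-ps3* differs, and each of the others covered 3 of them. At those 3 positions no copy carried the base of *Rps7-ps3*.

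*Adi1* (ENSMUSG00000020629, plus strand, chr12:28675231-28682175) was higher in the recent KO. It was at 117.2, 103.1, 117.7, 103.9 and 107.9 CPM in WT and at 163.3, 184.2, 160.4, 169.5 and 163.7 CPM in the recent KO. No samples overlapped, and the spread within each group was small beside the gap. The means were 110.0 ± 7.06 and 168.2 ± 9.52 CPM (SD, n = 5 each), 1.53-fold higher in the recent KO with a log2 fold change of 0.61 (SE 0.06). Adi1-201, of 1652 bases, held 95.7% to 100% of the gene's reads in every sample, so gene and transcript gave nearly the same values.

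*Trappc12* (ENSMUSG00000020628, minus strand, chr12:28690628-28750472) was lower in the recent KO. Its level was 30.9, 29.5, 27.9, 27.8 and 27.3 CPM in WT and 17.7, 19.4, 23.3, 20.5 and 19.4 CPM in the recent KO. The groups did not overlap, and recent KO replicate 3 came nearest to WT. The log2 fold change was -0.52 (SE 0.08). At the level of transcripts the division was unstable. Trappc12-202 took 48.6% to 68.9% of the gene's reads in WT but 96.0%, 42.5%, 36.5%, 19.1% and 52.9% in recent KO replicates 1 to 5, and Trappc12-201 took most of the rest. The log2 fold changes of the transcripts were -0.81 (SE 0.31) for Trappc12-202 and -0.04 (SE 0.58) for Trappc12-201.

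*Acp1* (ENSMUSG00000044573, minus strand, chr12:30893326-30911589) was higher in the recent KO. It was at 126.2, 126.6, 124.9, 130.9 and 137.9 CPM in WT and at 185.8, 176.5, 158.0, 165.7 and 170.8 CPM in the recent KO. The groups did not overlap, and the log2 fold change was 0.41 (SE 0.06), or 1.33-fold. The gene's reads were divided between Acp1-201, with 54.9% to 59.7% in WT and 44.3% to 58.3% in the recent KO, and Acp1-202, with 38.1% to 44.8% and 41.6% to 55.3%. The log2 fold changes of the transcripts were 0.26 (SE 0.07) and 0.62 (SE 0.11). Its copies *Gm14388*, *Gm1866* and *Gm6947* had at most 3 reads in a sample. *Alkal2*, which overlaps *Acp1* by 529 bases on the other strand, had no reads.

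*Rnaseh1*, *Eipr1* and *Sh3yl1* had groups that overlapped. *Rnaseh1* (ENSMUSG00000020630, plus strand, chr12:28649602-28659589), which lies between *Rps7* and *Adi1*, was at 39.8, 40.8, 36.8, 41.7 and 43.8 CPM in WT and at 38.0, 43.5, 42.5, 40.7 and 41.7 in the recent KO, with a log2 fold change of 0.03 (SE 0.07). *Eipr1* (ENSMUSG00000036613, plus strand, chr12:28751803-28869865) was at 53.5, 48.4, 53.6, 53.2 and 54.7 CPM in WT and at 49.4, 58.6, 46.0, 49.5 and 45.5 in the recent KO, with a log2 fold change of -0.08 (SE 0.08). For both genes the difference of the means was smaller than the spread within the recent KO. *Sh3yl1* (ENSMUSG00000020669, plus strand, chr12:30911668-30960162) had 7 to 23 reads per WT sample and 1 to 14 per recent KO sample, or 0.880 ± 0.385 and 0.414 ± 0.363 CPM (SD, n = 5 each), and exceeded the minimum of the filter in 3 WT and 2 recent KO samples. Its log2 fold change was -1.09 (SE 0.58), and a difference was not detectable at this depth.

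**Figure D3:**
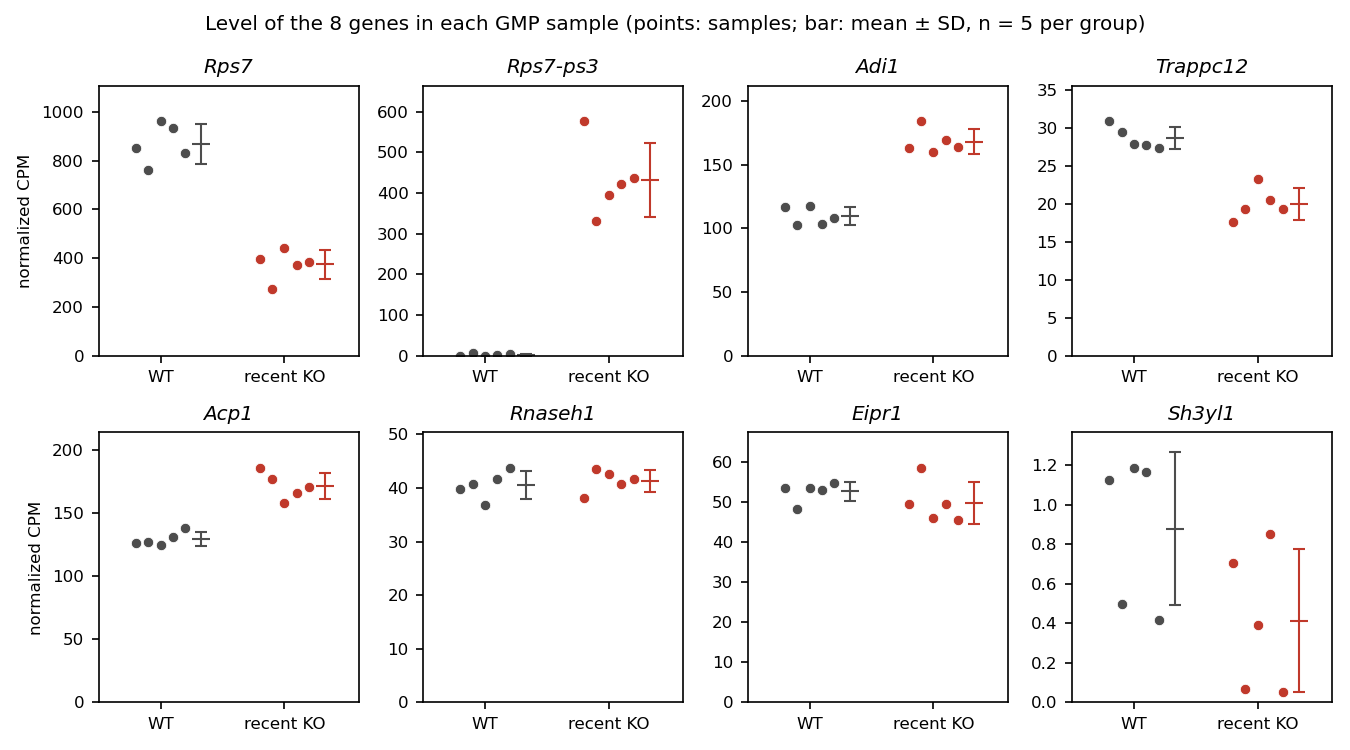
Normalized CPM (y axes, each from 0) of the 8 genes in each sample, with 1 point per sample and the mean ± SD beside it (n = 5 per group). The groups are apart for Rps7, Rps7-ps3, Adi1, Trappc12 and Acp1, and overlap for Rnaseh1, Eipr1 and Sh3yl1.

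Of the 8 genes, 5 passed an adjusted p of 0.05 by edgeR's quasi-likelihood test, where 41 of 12381 genes tested (0.331%) did, and the same 5 had groups that did not overlap, where 301 of 12381 (2.43%) did. Since the comparison was used to choose the genes, these counts are printed beside the background and nothing is read from them. *Trappc12* was not called without TMM scaling, and neither *Trappc12* nor *Acp1* was called by limma on TPM, where *Acp1* had a log2 fold change of 0.43. Of the 40 annotated transcripts of the 8 genes 17 were tested and 4 passed (Rps7-201, Rps7-203, Rps7-ps3-201 and Adi1-201), against 11 of 26341 transcripts tested (0.0418%).

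Ordered by TPM, a level per transcript length, *Rps7-ps3* was near the end in WT and first in the recent KO, and the order of the other 7 genes among themselves was the same in both groups. In WT the mean TPM was 1092 for *Rps7*, 62.1 for *Adi1*, 39.4 for *Acp1*, 34.1 for *Eipr1*, 27.3 for *Rnaseh1*, 7.29 for *Trappc12*, 5.697 for *Rps7-ps3* and 0.443 for *Sh3yl1*. The sample ranges of *Acp1* and *Eipr1*, of *Eipr1* and *Rnaseh1*, of *Trappc12* and *Rps7-ps3*, and of *Rps7-ps3* and *Sh3yl1* overlapped, so those neighbors were not separated in WT. In the recent KO *Rps7-ps3* came first with 953.5 TPM, followed by *Rps7* with 468.9 and *Adi1* with 98.9, and the ranges of these 3 did not overlap. Then came *Acp1* with 53.3, *Eipr1* with 31.8 and *Rnaseh1* with 28.6, the ranges of the last pair overlapping, and *Trappc12* with 5.30 and *Sh3yl1* with 0.229 TPM.

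The position of the genes was then examined. *Rps7*, *Rnaseh1*, *Adi1*, *Trappc12* and *Eipr1* formed a run with gaps of 13.65, 15.64, 8.45 and 1.33 kb between them, and *Acp1* and *Sh3yl1* lay next to each other with a gap of 78 bases. A gap of 1715 kb separated *Eipr1* from *Tmem18*, the next gene with enough reads, and 302.1 kb separated *Tmem18* from *Acp1*. In the order of the chromosome the log2 fold changes were -1.21 for *Rps7*, 0.03 for *Rnaseh1*, 0.61 for *Adi1*, -0.52 for *Trappc12* and -0.08 for *Eipr1*. The value of *Rps7* rests on the division of reads with *Rps7-ps3*, and for the sum of both genes it was -0.11 in CPM and 0.37 in TPM.

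Between 28 and 31 Mb the annotation held 38 genes, of which 33 were quantified and 8 were tested. The other 25 had at most 25 reads in a sample, and 18 of them had none. *Tmem18*, which encodes a transmembrane protein of the nuclear envelope, was the only gene tested there besides the 7 chosen ones. It was at 8.96, 9.60, 8.43, 9.25 and 7.30 CPM in WT and at 10.6, 12.8, 12.5, 11.4 and 11.4 CPM in the recent KO. The groups did not overlap, and the log2 fold change was 0.43 (SE 0.10). The edgeR quasi-likelihood test gave *Tmem18* an adjusted p of 0.136 over all genes (0.0399 to 0.492 over the alternatives), with DESeq2 alone passing the threshold.

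Beside the segment no gene was called by edgeR or by DESeq2. From 23 to 28 Mb 9 genes were tested and 2 had an unadjusted p under 0.05, *Rnf144a* and *Cmpk2*. From 31 to 36 Mb 17 genes were tested and 2 had an unadjusted p under 0.05, *Pik3cg* and *Twistnb*. The background for both counts was 1268 of 12381 genes tested with an unadjusted p under 0.05 by edgeR. *Cmpk2*, which encodes a mitochondrial nucleotide kinase, had a log2 fold change of -0.61 (SE 0.17) and was called only when no filter on low counts was used (edgeR, adjusted p = 0.037). Over the whole of chromosome 12, 8 of 438 genes tested passed, 4 of them in the segment and 4 of 430 outside it (*Fam177a*, *Srp54b*, *Pld4* and *Ighm*). Among all genes tested, 41 of 12381 (0.331%) passed. The 4 in the segment are among the genes chosen for their difference.

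**Figure D4:**
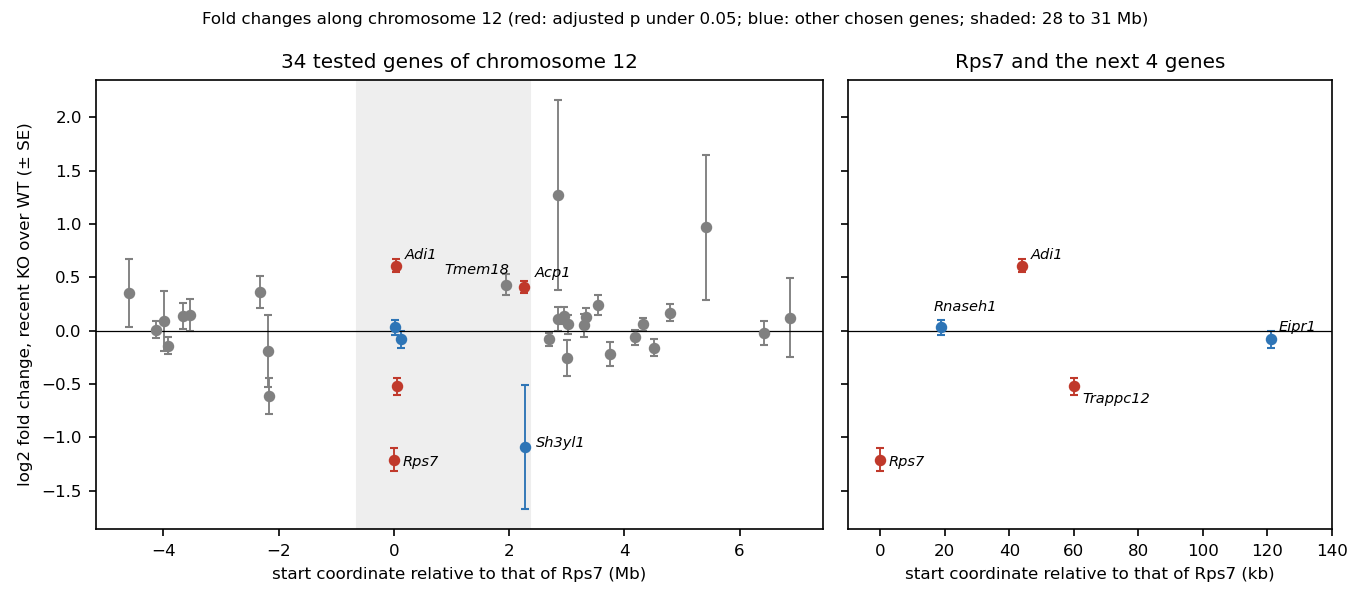
Recent KO over WT, as log2 fold change (y axis, ± SE) of the 34 tested genes between 23 and 36 Mb of chromosome 12 against their start coordinate relative to that of Rps7 (x axis, Mb at left and kb at right). Red points passed an adjusted p of 0.05, and at right the chosen genes around Rps7 range from -1.21 for Rps7 to 0.61 for Adi1, with Rnaseh1 and Eipr1 near 0.

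The other genes of the same pathways and complexes were compared for *Rps7*, *Adi1*, *Trappc12*, *Eipr1* and *Rnaseh1*. The background for the list counts below was 1268 of 12381 genes tested with an unadjusted p under 0.05 by edgeR. None of the 33 other 40S ribosomal protein genes passed, and none had an unadjusted p under 0.05 by edgeR. Their log2 fold changes ran from -0.04 (*Rps23*) to 0.15 (*Rps28*), with a median of 0.07 against 0.00 over all genes tested, and *Rps7* was at -1.21 alone, and together with *Rps7-ps3* at -0.11 in CPM and 0.37 in TPM. None of the 7 other methionine salvage genes passed, and 1 had an unadjusted p under 0.05. That gene was *Mtap*, the first enzyme of the pathway, with a log2 fold change of 0.20 (SE 0.09), while *Adi1* was at 0.61.

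None of the 13 other TRAPP genes passed, none had an unadjusted p under 0.05, and they ran from -0.27 (*Trappc10*) to 0.12 (*Trappc6a*) beside -0.52 for *Trappc12*. None of the 5 other EARP and GARP genes passed, and 1, *Vps53*, had an unadjusted p under 0.05, with a log2 fold change of -0.20 (SE 0.08). None of the 3 other RNase H genes passed or had an unadjusted p under 0.05. DESeq2 called no gene of these lists either, the chosen genes aside. Without TMM scaling the median of every list was higher, so the shift was not particular to 1 list. It was 0.14 in place of 0.07 for the 40S genes and 0.08 in place of 0.00 for the TRAPP genes. For methionine salvage and for RNase H it was 0.11 in place of 0.04, and for EARP and GARP -0.02 in place of -0.09.

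**Figure D5:**
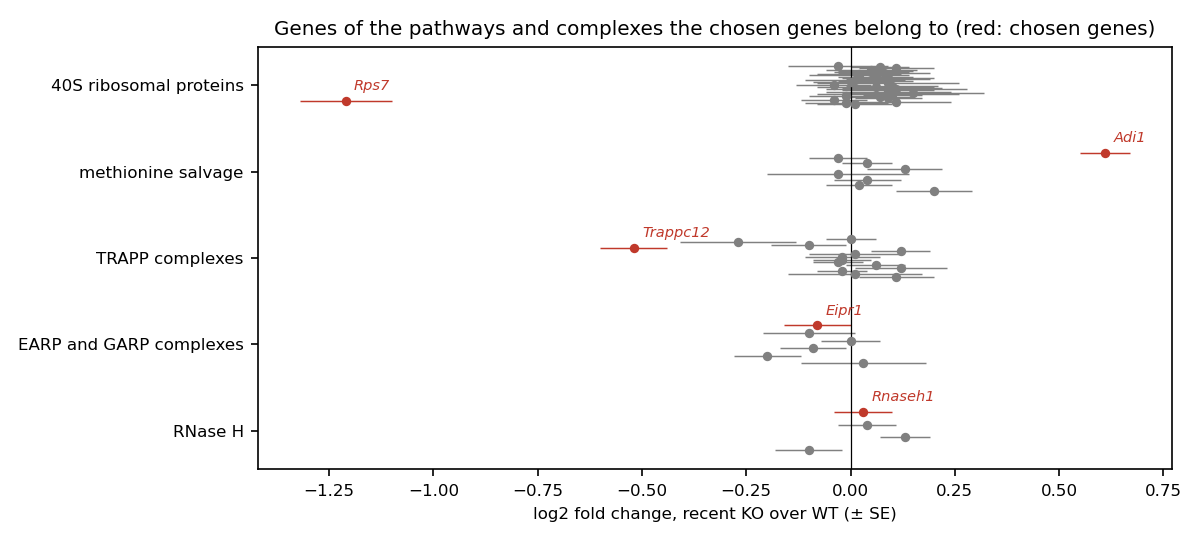
Recent KO over WT, as log2 fold change (x axis, ± SE) of each gene in 5 lists (rows), with the chosen genes in red. Rps7, Adi1 and Trappc12 lie outside the range of the other genes of their lists, and Eipr1 and Rnaseh1 lie within it. Rps7 is drawn as the gene alone, and its sum with Rps7-ps3 is not shown.

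Over the 10 samples, the genes whose log2 levels were most like *Rps7* were *Mrrf* (Pearson r 0.973), *Hddc3* (0.968) and *Gm42429* (0.955). Those most like *Rps7-ps3* were *Gm7993* (0.955), *Acp1* (0.945) and *Nkrf* (0.936), and those like *Adi1* included *Gm7993* (0.947) and *Gatad2b* (0.934). The samples form 2 groups that differ in these genes, so these values mostly describe that shared difference and are given without a test. The likeness also covered differences of unequal size, with a log2 fold change of -0.14 for *Mrrf*, -2.52 for *Hddc3*, -10.3 for *Gm42429* and 8.89 for *Gm7993*. Those of *Gm42429* and *Gm7993* were the lowest and the highest of all genes tested.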

How the data were processed

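GMPs were sorted by the authors, libraries were made with the SMARTseq V4 kit and sequenced as paired ends, and transcripts of Gencode M27 (GRCm39) were quantified with Salmon (1.5.1 per the submitters' processing notes). The authors deposited estimated counts of reads per transcript, not normalized, and TPM, scaled to transcript length and to a fixed total per sample. The authors also deposited a DESeq2 table (mean signal, log2 fold changes, a test score, p-values), which was not used. Estimated reads favor long transcripts, and Salmon divides reads between near-identical transcripts by a model, so the division between *Rps7* and *Rps7-ps3* is an estimate.

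Transcripts were matched by Ensembl identifier to GENCODE M21 (GRCm38), and 137161 of 140789 (97.4%) matched. Unmatched ones held 0.348% to 0.390% of a sample's reads. *Rps7-ps3* is named *Gm6472* in M21. All positions and sequences are from M21. Reads were summed per gene, rounded, and tested with edgeR 4.0.16 (TMM, filterByExpr with a minimum count of 10, quasi-likelihood test, no covariates, Benjamini-Hochberg over 12381 genes, threshold 0.05) in R 4.3.3. Transcripts were tested likewise. The fit was tested on simulated data. Alternatives used DESeq2 1.42.0 and limma 3.58.1 on log2(TPM + 1) or log2(TPM + 0.1). Transcripts of *Rps7* and *Rps7-ps3* were aligned with Biopython 1.88, windows were matched exactly, and copies were searched for with BLAST 2.17.0. Likeness used log2 normalized CPM with a pseudocount of 0.5. Whether same-numbered samples deviate together was checked, and correlations of their deviations ran from -0.177 to 0.0576, so the numbers were not taken as pairs. P-values measure the spread between these samples, which are single mice in WT and pools of 2 mice in the KO. Genes named are the 8 chosen, the other tested genes of 28 to 31 Mb, flanking genes by call or unadjusted p, copies with reads, list genes and the 3 most alike, of which 1 is not reported here. The members and lists were chosen with earlier results of these data known.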

Additional observations from a re-analysis of the deposited data

Results flagged for a closer look

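Of the 20 groups of samples examined among these genes and sums, 1 held a sample that stood apart from the rest of its group, where chance flags about 1 in 20 groups. *Eipr1* in WT replicate 2 was at 48.4 normalized CPM, and the other 4 WT samples were at 53.2 to 54.7 CPM. The recent KO samples lay between 45.5 and 58.6 CPM, around that value.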

How the results depend on the processing

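As the 8 genes were chosen on this comparison, their calls under the alternatives are a description. The log2 fold change of *Adi1* was 0.58 to 0.68 over 21 alternatives. With *Rps7* and *Rps7-ps3* merged before the fit, the merged gene had a log2 fold change of -0.11 and did not pass, which for *Rps7-ps3* is the opposite direction, and 3 of the 7 genes then left passed, where 5 of 8 had. For *Rps7-ps3* limma on log2(TPM + 0.1) gave 9.38. *Trappc12* lost its call without TMM scaling, with limma (-0.40 with a pseudocount of 1) and with the replicate block, and *Acp1* with limma and the block. By limma 3 of the 7 genes tested passed with the filter at either pseudocount, and 3 of 8 without it at a pseudocount of 1. *Sh3yl1* moved to -0.24 with limma on unfiltered TPM. Summed TPM of *Rps7* and *Rps7-ps3* gave 0.37 in place of -0.11. Where a cause is not named here, the cause was not tested.

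Over all genes, 41 calls became 206 with no filter on low counts, 156 by DESeq2, 25 and 24 by limma with pseudocounts of 1 and 0.1, 13 by limma without a filter, 20 with the replicate block, where 3 of the 8 genes passed, and 11 for transcripts in place of genes. Leaving out each sample in turn gave 25 to 91 calls, the highest without recent KO replicate 2 and the lowest without recent KO replicate 3 or 4, with 26 without WT replicate 3. In the segment DESeq2 called 1 further gene, *Tmem18*, against 0, and in the flanks 1, *Cmpk2*, was called with no filter against 0. No WT sample correlated best with the recent KO sample of its own number. Depth limits *Sh3yl1*, with at most 23 reads in a sample. No value shows which reads of the stretch shared by *Rps7* and *Rps7-ps3* came from which gene.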
